A study of Mus musculus with 20 samples.

Results

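The bicistronic miR-144 and miR-451a locus gives rise to 3 mature microRNAs that were counted in mouse serum: mmu-miR-451a, mmu-miR-144-3p and mmu-miR-144-5p. They were chosen by name, as the products of these neighbouring hairpins, and they are 3 of the 1915 mature names in the count table, of which 1191 had at least 1 read. Each of the 3 had 1 row in the table, and all 3 passed the filter on low counts that left 360 miRNAs for testing. Small RNA was sequenced from serum of 20 samples, 5 in each of 4 groups: old dwarf (21 to 22 months), young dwarf (5 to 6 months), old normal (21 to 22 months) and young normal (5 to 6 months). All samples are labelled as female and as coming from the Ames dwarf line on a heterogeneous genetic background. Ames dwarf mice lack growth hormone, prolactin and thyrotropin and are known for their long life. The normal mice are those of the same line that the labels call normal. The study set genotype against age, so dwarf was compared with normal at each age, old with young in each genotype, and the age effect of dwarf mice with that of normal mice. Whether the samples of a group came from separate mice is not given in the labels. The p-values thus rest on the spread between samples, which need not be the spread between mice.

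Both hairpins lie on a single primary transcript that is driven by GATA1 in maturing red cells, where their products rank among the most abundant microRNAs. The hairpin of miR-144 is cut by Drosha and then Dicer and can load either arm, whereas the short hairpin of miR-451a skips Dicer, is sliced by Ago2 and then trimmed, so that it yields a mature strand from its 5p side. miR-451a represses Ywhaz, an inhibitor of FoxO3, and thereby helps red cells to withstand oxidative stress, and miR-144 is known in human red cells to target NRF2, another regulator of that response. Red cells carry these microRNAs in bulk, so their level in serum is also read as a sign of red-cell rupture during or before blood collection.

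The mature strands are shown because their seeds decide what each can bind. RefSeq (GRCm38.p6) places all 3 on the plus strand of chromosome 11, miR-144-5p at chr11:78073010-78073032, miR-144-3p at chr11:78073047-78073066 and miR-451a at chr11:78073186-78073207. Capitals mark the seed, bases 2 to 8 from the 5′ end, and the sequences run 5′ to 3′.
mmu-miR-451a: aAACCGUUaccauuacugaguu
mmu-miR-144-3p: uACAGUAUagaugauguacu
mmu-miR-144-5p: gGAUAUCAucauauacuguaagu
mmu-miR-101a-3p: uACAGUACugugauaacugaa
The 3 members share no seed with one another. Among 1679 mouse mature sequences in the RefSeq table, none besides the members themselves had bases 2 to 7 of miR-451a or of miR-144-5p. Only miR-101a-3p, from the minus strand of chromosome 4 (chr4:101346957-101346977), had bases 2 to 7 of miR-144-3p, and it differed at base 8.

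The hairpins show how unlike the 2 precursors are, with the mature strands in capitals.
Mir144, chr11:78073005-78073070: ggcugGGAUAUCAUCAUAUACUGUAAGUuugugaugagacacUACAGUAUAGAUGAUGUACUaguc
Mir451a, chr11:78073170-78073241: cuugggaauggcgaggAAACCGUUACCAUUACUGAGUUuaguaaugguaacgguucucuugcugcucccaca
The Mir144 hairpin of 66 bases holds a strand in each arm, with an unloaded loop between them. In the Mir451a hairpin of 72 bases, the mature strand takes up bases 17 to 38 and so runs past the midpoint at base 36, across the loop. The hairpins lie 99 bases apart and together span 237 bases. They sit between protein-coding genes: in the GENCODE M21 annotation, Eral1 on the minus strand ends 135 bases downstream of the pair and Flot2 on the plus strand ends 12571 bases upstream. The antisense miR-451b is annotated within the span of the Mir451a hairpin, and it had 0 of 48692970 counts, which allows a share of up to 6.16e-06 percent.

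Library totals ran from 1343137 to 4710263 counts with 1 row per mature name. Each miRNA read covers its whole mature strand, so counts of different miRNAs are compared without a correction for length, although ligation and amplification favour some ends over others. Levels are given as CPM, counts scaled to a common library size, with library sizes scaled by TMM factors, which set the bulk of miRNAs level between libraries. Intervals on single libraries cover counting error only. A single library stood apart: old normal replicate 2 had the lowest level of all 3 members among the 20 libraries, with 9388 counts of miR-451a, 235 of miR-144-3p and 46 of miR-144-5p. Results that include it are therefore given with and without it where its removal matters.

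miR-451a was among the most abundant serum miRNAs and its partners were scarce beside it. Summed over the 20 libraries, miR-451a had 1468175 counts, miR-144-3p had 24805 and miR-144-5p had 6009. miR-451a ranked between 5 and 16 among all names within a library, miR-144-3p between 55 and 90, and miR-144-5p between 100 and 164. As a share of a library's counts, miR-451a made up 3.05% ± 1.22 in old dwarf, 4.21% ± 1.42 in young dwarf, 1.45% ± 0.450 in old normal and 3.93% ± 1.37 in young normal serum (SD, n = 5 each). These totals count the same reads under both miR-486a-5p and miR-486b-5p, 13577935 under each name over the 20 libraries. The shares are therefore lower than shares of distinct reads, most so where miR-486a-5p is high, and its mean level was highest in old normal serum. The ranks likewise count both names. The ranks of miR-451a were 8 to 16 in old normal libraries, against 5 to 8 in young normal libraries.

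The authors' deposited report on all libraries together splits the reads by their position on each hairpin. In that report the miR-144 precursor had 30707 reads, of which 24787 lay on the 3p strand, 5919 on the 5p strand and 1 in the loop. For the miR-451a precursor it lists 1468175 reads on the 5p strand, 0 on the 3p strand and 452 elsewhere. The miRDeep2 caller gave miR-144 a score of 4.8 but did not detect miR-451a as a hairpin. By reads, miR-451a headed the 338 known precursors listed there as not detected, and the next had 73000 reads.

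miR-451a had 31608, 24349, 24993, 41160 and 30967 CPM in old dwarf libraries and 27381, 26620, 41629, 43085 and 25800 CPM in young dwarf libraries. It had 20552, 8408, 23190, 17782 and 22115 CPM in old normal libraries and 22055, 33915, 57831, 36574 and 32650 CPM in young normal libraries. Every old dwarf library lay above every old normal library, as was so for 7.78% of the 360 miRNAs tested. Each of the other compared pairs of groups overlapped. The group means were 30615 ± 6767 CPM in old dwarf, 32903 ± 8664 in young dwarf, 18409 ± 5950 in old normal and 36605 ± 13087 in young normal serum (SD, n = 5 each). Young normal serum was thus highest, followed by young dwarf, old dwarf and old normal serum. Of the neighbours in that order, young dwarf and young normal did not differ beyond their spread (edgeR adjusted p = 0.900), nor did old dwarf and young dwarf (edgeR adjusted p = 0.997), and old dwarf against old normal missed the threshold narrowly (edgeR adjusted p = 0.0550).

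miR-144-3p, the main product of its hairpin, had 446, 623, 644, 526 and 567 CPM in old dwarf libraries and 547, 401, 422, 507 and 378 CPM in young dwarf libraries. It had 311, 210, 473, 388 and 505 CPM in old normal libraries, against 478, 400, 865, 903 and 409 CPM in young normal libraries. Young normal replicates 3 and 4 held the highest levels, and all compared groups overlapped. The group means were 561 ± 79.5 CPM in old dwarf, 450.96 ± 72.7 in young dwarf, 377 ± 120 in old normal and 611 ± 251 in young normal serum (SD, n = 5 each). In order of level, young normal came first, then old dwarf, young dwarf and old normal serum. Young normal and old dwarf serum differ in age as well as genotype and were not compared, nor were young dwarf and old normal serum, while old dwarf and young dwarf serum did not differ beyond their spread (edgeR adjusted p = 0.997).

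miR-144-5p, the scarcer arm, had 112, 142, 143, 132 and 145 CPM in old dwarf libraries and 112, 108, 115, 155 and 101 CPM in young dwarf libraries. Its levels were 63.4, 41.2, 118, 99.7 and 111 CPM in old normal libraries, against 124, 115, 197, 192 and 103 CPM in young normal libraries. The old dwarf libraries lay close together, between 112 and 145 CPM, while the old normal libraries spread from 41.2 to 118 CPM. The means followed the order of miR-144-3p, at 135 ± 13.7 CPM in old dwarf, 118 ± 21.1 in young dwarf, 86.6 ± 32.9 in old normal and 146 ± 44.7 in young normal serum (SD, n = 5 each).

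**Figure D1:**
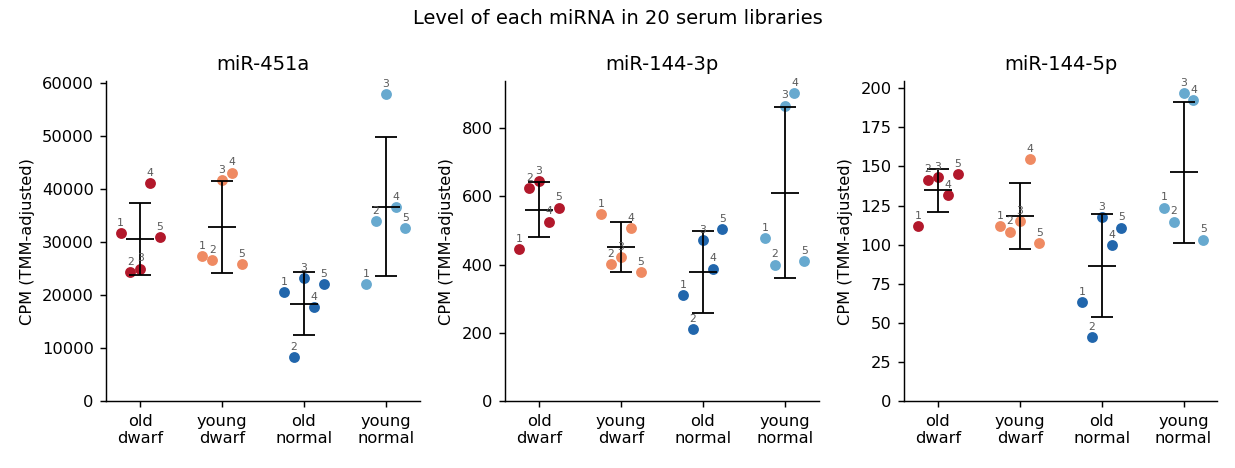
Level of miR-451a, miR-144-3p and miR-144-5p in CPM (linear axes from 0) in each of the 20 libraries, with replicate numbers beside the points and bars for the mean ± SD of 5 libraries. Old normal serum has the lowest mean of all 3, and its replicate 2 is the lowest library in each panel.

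In normal mice, miR-451a fell with age. Its mean was 18409 CPM in old normal serum and 36605 CPM in young normal serum, a log2 fold change of -0.99 ± 0.28 (SE; 95% interval -1.57 to -0.41; edgeR quasi-likelihood test, adjusted p = 0.0198), and it was 1 of 38 miRNAs called lower, 10.6% of the 360 tested. In all, 15.6% of miRNAs were called in this comparison. miR-144-3p had a log2 fold change of -0.69 ± 0.26 (SE; edgeR adjusted p = 0.0696) and miR-144-5p one of -0.75 ± 0.27 (SE; edgeR adjusted p = 0.0607), and neither passed. All 3 members overlapped between the ages, and 7.78% of miRNAs did not. In serum, RNA from fewer red cells, less RNA from each red cell and less red-cell rupture cannot be told apart. In the same libraries 5 markers of myeloid cells and platelets summed to 53587 to 75142 CPM in old normal serum, against 20333 to 50661 CPM in young normal serum, and the part of such cells in the result was not tested. Most counts of these markers were of miR-191-5p and miR-142a-5p, with 1042993 and 750980 over the 20 libraries.

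The call of miR-451a rested in part on single libraries. Without old normal replicate 2 it was kept, with a log2 fold change of -0.81 (edgeR adjusted p = 0.0444). Leaving out young normal replicate 3, the library with the most miR-451a, gave -0.78 (edgeR adjusted p = 0.0747), and this was the only one of the 20 single-library omissions that lost the call. It also held under each of the 10 other settings tried, at adjusted p from 0.00284 to 0.0434.

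In dwarf mice, the same age contrast gave small values of mixed sign under TMM and RLE factors, whereas under library totals all 3 were negative (-0.46 for miR-451a, -0.086 for miR-144-3p and -0.22 for miR-144-5p) and under upper-quartile factors that of miR-451a was 0.0071. miR-451a had a log2 fold change of -0.10 ± 0.28 in old dwarf against young dwarf serum (SE; 95% interval -0.68 to 0.47; edgeR adjusted p = 0.997). For miR-144-3p it was 0.32 ± 0.26 (95% interval -0.23 to 0.87) and for miR-144-5p 0.19 ± 0.26 (95% interval -0.37 to 0.74), with edgeR adjusted p = 0.997 for both. None of the 3 was called, and 0.556% of the 360 miRNAs were. The groups of all 3 overlapped, as did those of all but 1.67% of miRNAs. Unadjusted p-values were 0.710, 0.246 and 0.487. The interval of miR-451a overlapped that of normal mice.

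The difference between these age effects was tested directly. The age effect in dwarf mice minus that in normal mice was 0.89 ± 0.39 for miR-451a, 1.01 ± 0.37 for miR-144-3p and 0.94 ± 0.38 for miR-144-5p (log2, SE). Unadjusted p-values were 0.0340, 0.0137 and 0.0211, and none passed after adjustment over all miRNAs (edgeR adjusted p = 0.266, 0.189 and 0.211), where 0.556% of miRNAs were called. The call in normal mice alone thus does not show that the age effects differ. The values without old normal replicate 2 were 0.70, 0.86 and 0.77.

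Among old mice, the fold changes of dwarf against normal serum were positive for all 3 members, and none passed the threshold. miR-451a averaged 30615 CPM in old dwarf serum, against 18409 CPM in old normal serum, a log2 fold change of 0.73 ± 0.28 (SE; 95% interval 0.16 to 1.31; edgeR adjusted p = 0.0550). miR-144-3p averaged 561 and miR-144-5p 135 CPM in old dwarf serum, against 377 and 86.6 CPM in old normal serum. Their log2 fold changes were 0.57 ± 0.26 (SE; edgeR adjusted p = 0.1004) and 0.63 ± 0.27 (SE; edgeR adjusted p = 0.0750). Unadjusted p-values were 0.0153, 0.0432 and 0.0275. Of the 5 contrasts, this one had the most calls, with 26.4% of the 360 miRNAs called and 16.1% called higher in old dwarf serum, and the members were not among them. miR-451a was 1 of 28 miRNAs whose old dwarf libraries all lay above the old normal libraries (7.78% of those tested, and 12.5% did not overlap in either direction).

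Other settings moved miR-451a past the threshold, and leaving out 1 library moved all 3 members away from it. miR-451a passed under DESeq2, with a log2 fold change of 0.88 (adjusted p = 0.0102), and under 5 more of the 10 other settings. Without old normal replicate 2 the edgeR values were 0.55 for miR-451a (adjusted p = 0.117), 0.42 for miR-144-3p (adjusted p = 0.234) and 0.46 for miR-144-5p (adjusted p = 0.168). Other libraries mattered too: over the 20 single-library omissions the edgeR adjusted p of miR-451a ran from 0.0365 to 0.165, and it passed in 4.

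Among young mice, none of the members separated the genotypes. miR-451a averaged 32903 CPM in young dwarf serum, against 36605 CPM in young normal serum, a log2 fold change of -0.15 ± 0.28 (SE; 95% interval -0.73 to 0.42; edgeR adjusted p = 0.900), which was 0.10 under library totals. miR-144-3p had -0.44 ± 0.26 (SE; edgeR adjusted p = 0.641) and miR-144-5p -0.31 ± 0.26 (SE; edgeR adjusted p = 0.733). No miRNA was called in this comparison by edgeR (0 of 360, 0%), where 28 had an unadjusted p under 0.05 and DESeq2 called 6. All 3 members overlapped between the groups, and 1.94% of miRNAs did not. The comparisons above share libraries: old normal serum enters both the old dwarf comparison and the age comparison in normal mice, and each of the other groups likewise enters a pair of comparisons.

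**Figure D2:**
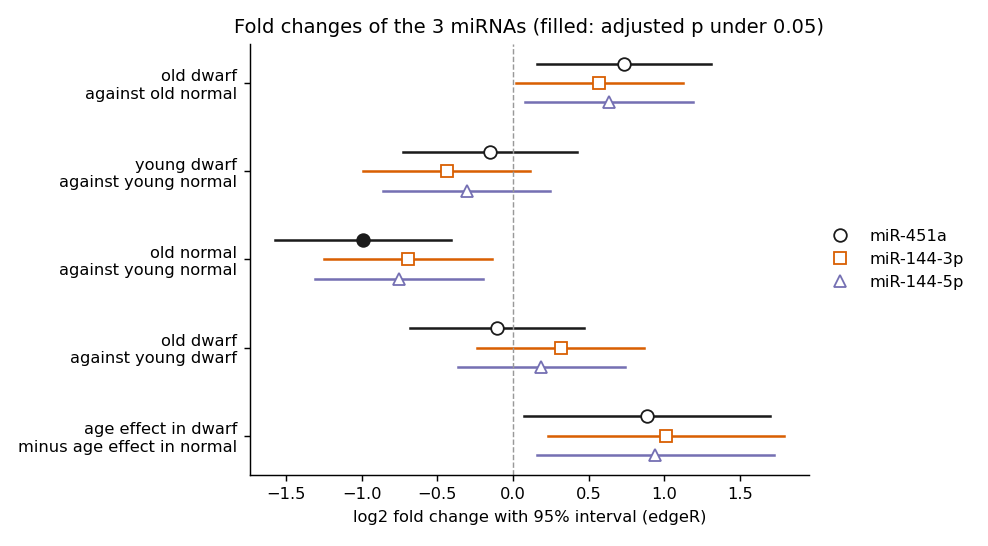
Log2 fold changes of the 3 members with 95% intervals from edgeR in the 4 pairwise comparisons and in the difference between the age effects. A filled symbol marks an adjusted p under 0.05, which only miR-451a in old against young normal serum reached, at -0.99.

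Other scalings shifted all miRNAs together. With library totals in place of TMM factors, the median log2 fold change over the 360 miRNAs was -0.42 in old against young normal serum and 0.23 in old dwarf against old normal serum, against 0.00 and -0.06 under TMM. Set against that median, miR-451a stood at -1.02 under library totals and -0.99 under TMM in the age comparison of normal mice. In old dwarf against old normal serum it stood 0.85 above the median under library totals and 0.79 above it under TMM. Subtracting the median takes out most of the scaling, so the values of a pair are close by construction.

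Ratios within a library need no scaling between libraries. Because miR-144-3p and miR-451a leave the same transcript, their ratio was followed first. Per 1000 reads of miR-451a, there were 19.3 ± 6.16 reads of miR-144-3p in old dwarf, 14.3 ± 3.76 in young dwarf, 21.0 ± 3.71 in old normal and 17.1 ± 5.74 in young normal serum (SD, n = 5 each). Single libraries ranged from 10.1 to 25.8, and the groups overlapped throughout. The log2 difference of the ratio was 0.34 in old against young normal serum (exact permutation test, p = 0.190), 0.41 in old against young dwarf serum (exact p = 0.167), -0.17 in old dwarf against old normal serum (exact p = 0.516) and -0.23 in young dwarf against young normal serum (exact p = 0.405). These are 4 of 20 two-sided tests on 5 ratios that were adjusted together, and the lowest adjusted p among the 4 was 0.423. With 5 libraries against 5, the smallest p such a test can give is 0.00794.

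The use of the miR-144 arms was steadier. miR-144-5p made up 19.4% ± 1.01 of the reads of both arms in old dwarf, 20.8% ± 2.34 in young dwarf, 18.3% ± 1.79 in old normal and 19.8% ± 1.84 in young normal serum (SD, n = 5 each). Over the 20 libraries the share lay between 16.4% and 23.4%. The lowest share, in old normal replicate 2, rested on 46 of 281 reads and had an exact 95% binomial interval of 12.2% to 21.2%. The log2 ratio of the arms differed by 0.10 in old dwarf against old normal serum (exact p = 0.254), by 0.09 in young dwarf against young normal serum (exact p = 0.476), by -0.13 in old against young normal serum (exact p = 0.238) and by -0.12 in old against young dwarf serum (exact p = 0.294). None passed, with adjusted p from 0.423 to 0.635. Without young dwarf replicate 1, whose 5p share of 17.0% was the lowest of its group, the last of these was -0.21 (adjusted p = 0.0397).

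miR-451a was also set against 3 miRNAs of other loci. miR-486a-5p and miR-16-5p are abundant in red cells, and miR-486a-5p shares all its reads here with miR-486b-5p. miR-23a-3p is scarce in red cells and is known as the partner of miR-451a in an index of red-cell rupture. For miR-451a over miR-486a-5p the log2 ratio averaged -4.48 ± 0.619 in old normal and -2.80 ± 0.722 in young normal serum (SD, n = 5 each), and the groups did not overlap. That difference of -1.68 had the smallest possible p (exact permutation test, p = 0.00794, adjusted p = 0.0529). In old dwarf serum the ratio averaged -3.31 ± 0.769, and it differed from old normal serum by 1.17 (exact p = 0.0397, adjusted p = 0.159). The difference was -0.80 in old against young dwarf serum (exact p = 0.151, adjusted p = 0.423) and 0.29 in young dwarf against young normal serum (exact p = 0.587, adjusted p = 0.691).

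The ratio to miR-16-5p averaged -1.47 ± 0.255 in old normal and -0.81 ± 0.321 in young normal serum (SD, n = 5 each), again without overlap, a difference of -0.66 (exact p = 0.00794, adjusted p = 0.0529). The other differences of this ratio were 0.28 in old dwarf against old normal serum (exact p = 0.183), -0.28 in old against young dwarf serum (exact p = 0.230) and -0.11 in young dwarf against young normal serum (exact p = 0.627), with adjusted p from 0.423 to 0.697. The ratio to miR-23a-3p averaged 5.38 ± 0.437 in old dwarf and 4.30 ± 0.699 in old normal serum (SD, n = 5 each) without overlap, a difference of 1.08 (exact p = 0.00794, adjusted p = 0.0529). In old against young normal serum the ratio to miR-23a-3p differed by -1.15 (exact p = 0.0238, adjusted p = 0.119). Between old and young dwarf serum it differed by -0.02 and in young dwarf against young normal serum by -0.05. None of the 20 ratio tests passed. The 3 differences without overlap already had the smallest p the exact permutation test can give, 0.00794. After adjustment over the 20 tests this gave 0.0529, so a larger difference could not have made them pass. Their failure to pass therefore says nothing about their size. Without old normal replicate 2 the 3 separated differences were -1.41 for miR-486a-5p, -0.55 for miR-16-5p and 0.78 for miR-23a-3p, each with adjusted p = 0.159.

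**Figure D3:**
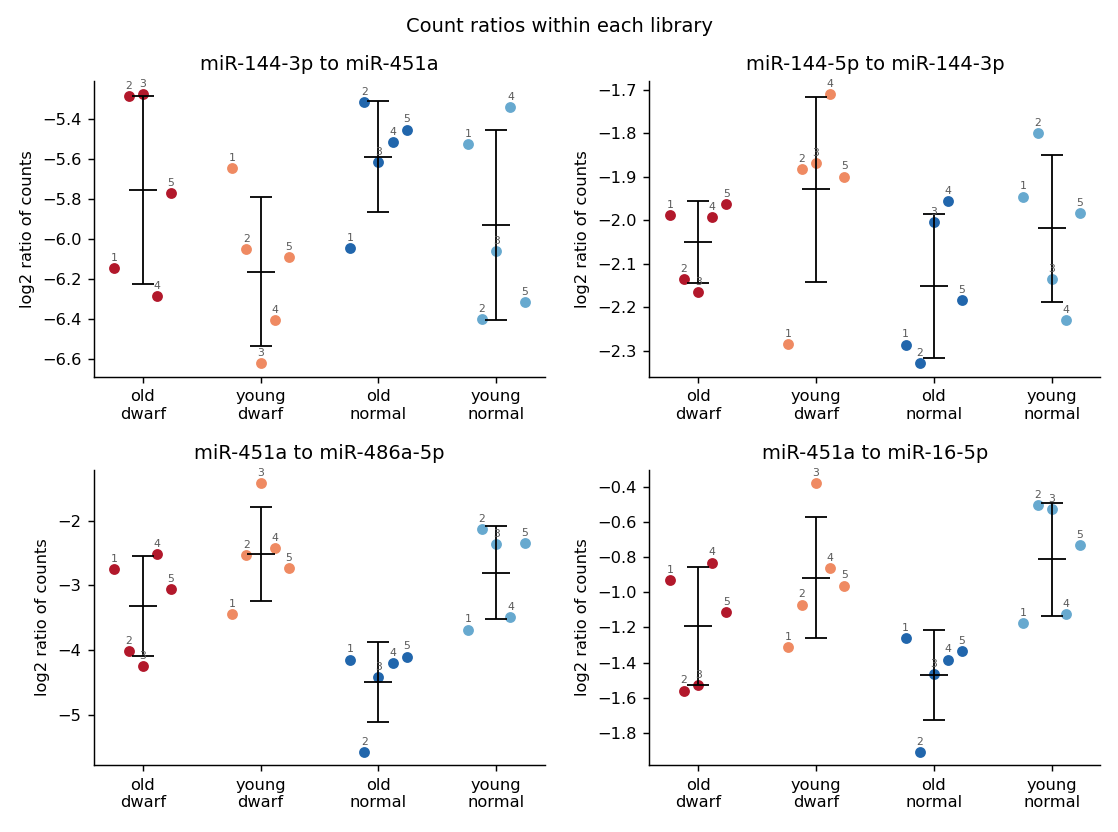
Log2 ratios of counts within each of the 20 libraries for miR-144-3p to miR-451a, miR-144-5p to miR-144-3p, miR-451a to miR-486a-5p and miR-451a to miR-16-5p, with replicate numbers and bars for the mean ± SD of 5 libraries (axes do not start at 0). The old normal libraries lie below all young normal libraries in both lower panels, while groups overlap in the upper panels.

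Across libraries, the highest correlation between members was that of the 2 arms of miR-144. Over the 20 libraries, the log2 levels of miR-144-3p and miR-144-5p had a Pearson r of 0.937 and a Spearman rho of 0.881 (permutation p = 2e-05 for both, the smallest that 100000 resamples can give, adjusted over the 3 pairs 6e-05). Without old normal replicate 2 and young normal replicate 4, the libraries farthest from the median, r was 0.891, and within groups it was 0.920. miR-451a and miR-144-5p had r = 0.806 (permutation p = 0.00018, adjusted 0.00027) and rho = 0.612 (permutation p = 0.00446, adjusted 0.00669), with r = 0.50 without old normal replicate 2 and young normal replicate 3 and 0.688 within groups.

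miR-451a and miR-144-3p had r = 0.683 (permutation p = 0.0023, adjusted 0.0023) and rho = 0.451 (permutation p = 0.0476). Without the same 2 libraries r was 0.282, and within groups it was 0.571. Those libraries were the farthest from the median of miR-451a, and leaving out extremes narrows the range, which by itself tends to lower r. The permutations behind these p-values ran over all libraries without regard to group, so they also take in differences between groups. The r within groups carries no p. The libraries share a scaling, and whether one r exceeds another was not tested.

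**Figure D4:**
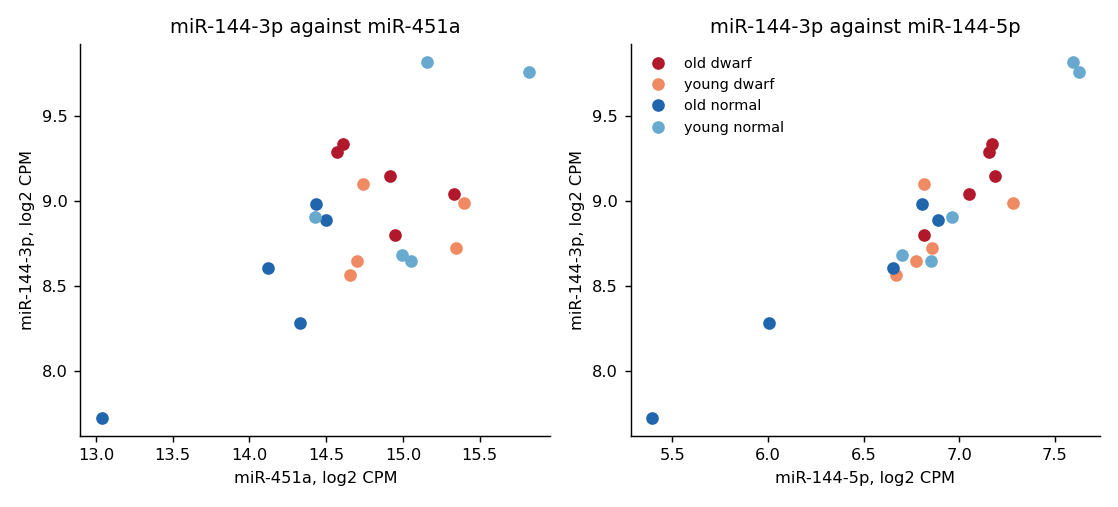
Log2 CPM of miR-144-3p against miR-451a (left) and against miR-144-5p (right) in 20 libraries coloured by group. The points lie closer to a line on the right (r = 0.937) than on the left (r = 0.683), where old normal replicate 2 sits alone at the lower end.

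miRNAs with the most similar profile were ranked by Pearson r of log2 CPM over the 20 libraries, among 351 names with identical names taken once. For miR-451a these were miR-106b-5p, of the Mcm7 host gene, at 0.931, miR-98-5p, of the let-7 family, at 0.917, miR-15a-5p at 0.839, miR-30a-5p at 0.834 and miR-16-1-3p at 0.818. miR-144-5p came at rank 7 and miR-144-3p at rank 29. The profile of miR-144-3p was most like that of its own 5p arm at 0.937, followed by miR-15a-5p at 0.915, miR-16-5p at 0.905, miR-93-5p at 0.885 and let-7i-5p at 0.856, with miR-451a at rank 13. For miR-144-5p the nearest were miR-15a-5p at 0.938, miR-144-3p at 0.937, miR-106b-5p at 0.889, miR-16-5p at 0.885 and miR-15b-5p at 0.843, with miR-451a at rank 9. miR-15a-5p, which is known to restrain the cell cycle together with its cluster partner miR-16, stood in the nearest 5 of all 3 members. These values describe libraries that share 4 groups and a scaling, and carry no test.

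Fold changes of other red-cell miRNAs took both signs in old against young normal serum and in old dwarf against old normal serum, where those of the cluster had 1 sign each. The list held miR-486a-5p, miR-486a-3p, miR-486b-5p, miR-486b-3p, miR-16-5p, miR-15a-5p, miR-92a-3p, miR-25-3p, miR-22-3p, miR-363-3p, miR-210-3p and miR-451b. miR-486b-5p and miR-486b-3p hold the same reads as the miR-486a arms and were counted with them, and miR-451b had no reads, so that 9 distinct miRNAs were tested. By edgeR, 0 of the 9 were called in any of the 5 contrasts. In old against young normal serum, where 15.6% of all miRNAs were called, 5 of the 9 had a positive fold change, with a median of 0.07 and a range from -0.55 to 0.96, against a median of 0.00 over all miRNAs. In old dwarf against old normal serum, 2 were positive, with a median of -0.32 and a range from -1.16 to 0.54, against -0.06 over all. For young dwarf against young normal serum 0 of the 9 were positive (median -0.23, against -0.04 over all), and for old against young dwarf serum 8 were (median 0.17, against 0.02 over all).

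An unadjusted p under 0.05 was found for 5 of the 9 red-cell miRNAs in old dwarf against old normal serum, where 45.3% of all miRNAs had one. It was found for 1 of the 9 in each of the other contrasts. The share over all miRNAs was 7.78% in young dwarf against young normal serum, 38.3% in old against young normal serum, 3.89% in old against young dwarf serum and 15.8% for the difference of the age effects. DESeq2 called 2 of the 11 names when old dwarf was set against old normal serum, where it called 136 miRNAs in all, and 1 in old against young normal serum, where it called 117.

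miR-486a-5p, the most abundant of them, averaged 313632 ± 112671 CPM in old dwarf, 192990 ± 72223 in young dwarf, 392032 ± 62999 in old normal and 260831 ± 106580 in young normal serum (SD, n = 5 each). Its log2 fold change in old against young normal serum was 0.59 (edgeR adjusted p = 0.147), of opposite sign to that of miR-451a. In the same comparison miR-92a-3p, of the miR-17 to miR-92 clusters, had 0.91 (edgeR adjusted p = 0.130), while miR-16-5p had -0.35 (edgeR adjusted p = 0.205) and miR-15a-5p had -0.55 (edgeR adjusted p = 0.0726). In old dwarf against old normal serum the log2 fold changes were -0.32 for miR-486a-5p (edgeR adjusted p = 0.417), -1.04 for miR-92a-3p (edgeR adjusted p = 0.0758), 0.48 for miR-16-5p (edgeR adjusted p = 0.0818) and 0.54 for miR-15a-5p (edgeR adjusted p = 0.0607). The Pearson r with miR-451a over the 20 libraries was -0.436 for miR-486a-5p, -0.643 for miR-92a-3p, 0.763 for miR-16-5p and 0.839 for miR-15a-5p. Within groups it was -0.117 for miR-486a-5p, -0.420 for miR-92a-3p, 0.726 for miR-16-5p and 0.750 for miR-15a-5p.

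miR-101a-3p, which shares bases 2 to 7 with miR-144-3p but comes from another locus, had the higher level in old dwarf serum when set against old normal serum. It averaged 1031 ± 406 CPM in old dwarf serum, against 421 ± 80.2 CPM in old normal serum (SD, n = 5 each), a log2 fold change of 1.29 ± 0.35 (SE; edgeR adjusted p = 0.0121), and it was 1 of the 16.1% of miRNAs called higher there. It was called under all 10 other settings and in all 20 single-library omissions. Between old and young normal serum its log2 fold change was -0.98 (edgeR adjusted p = 0.0607), with 421 ± 80.2 CPM in old and 833 ± 365 CPM in young normal serum. Its mean in young dwarf serum was 1127 ± 500 CPM (SD, n = 5), and the log2 fold change of old over young dwarf serum was -0.13 (edgeR adjusted p = 0.997). Its profile had an r of 0.196 with miR-144-3p and 0.706 with miR-451a over the 20 libraries. Within groups these were -0.145 and 0.542, and under library totals 0.684 and 0.873.

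Summed levels of cell markers are given as ranges, with no test. The summed level of 3 other red-cell markers (miR-486a-5p, miR-16-5p and miR-92a-3p) ran from 287615 to 594677 CPM in old dwarf, 178354 to 412251 in young dwarf, 418082 to 603554 in old normal and 210062 to 534814 in young normal libraries. The highest young dwarf sum lay below the lowest old normal sum, and the ranges of all other pairs of groups overlapped. Most of these counts were of miR-486a-5p, with 13577935 over the 20 libraries, against 2947261 of miR-16-5p and 1628032 of miR-92a-3p. The sum thus mainly follows miR-486a-5p. In old against young normal serum the log2 fold change was 0.59 for miR-486a-5p, -0.35 for miR-16-5p and 0.91 for miR-92a-3p. The 5 myeloid and platelet markers summed to 20292 to 57606 CPM in old dwarf, 18552 to 45640 in young dwarf, 53587 to 75142 in old normal and 20333 to 50661 in young normal libraries. Over the 20 libraries miR-191-5p had 1042993 and miR-142a-5p 750980 counts, against 21053 of miR-223-3p, 15873 of miR-142a-3p and 12655 of miR-126a-3p. The 3 lymphocyte markers summed to 667 to 1444 CPM in old dwarf, 645 to 1426 in young dwarf, 1580 to 4963 in old normal and 611 to 1887 in young normal libraries. Most of their counts were of miR-150-5p, with 63072, against 3195 of miR-342-3p and 509 of miR-155-5p. The highest sums of both lists were in old normal libraries, whose lowest myeloid and platelet sum was above the highest of young normal serum.

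The 3 hepatocyte markers summed to 4074 to 20824 CPM in old dwarf, 5574 to 22700 in young dwarf, 5653 to 12474 in old normal and 3007 to 6013 in young normal libraries. Nearly all of their counts were of miR-192-5p, with 445242 over the 20 libraries, against 2138 of miR-122-5p and 1853 of miR-802-5p. Of 4 markers of heart and skeletal muscle, the 3 that passed the filter summed to 1979 to 5562 CPM in old dwarf, 1778 to 5384 in young dwarf, 317 to 3983 in old normal and 1061 to 7581 in young normal libraries. Here miR-133a-3p held nearly all counts, with 155005 over the 20 libraries, against 349 of miR-208a-3p and 122 of miR-1a-3p. Of these markers miR-206-3p had 0 counts in 18 libraries and miR-1a-3p in 4, and all others had reads in every library. The part of these cells in the levels of miR-451a and miR-144 was not tested.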

How the data were processed

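Serum RNA of 20 samples was extracted with a column kit and made into TruSeq small RNA libraries, per the labels' protocols. The submitters' processing notes name Bowtie 0.12.8, bedtools, edgeR and GRCm38 (mm10), and give no role for any of them. The deposited values analysed were read counts per pair of mature miRNA and precursor, with columns as the miRDeep2 quantifier writes them, per the file headers. RPM columns deposited beside them were not used in tests. The deposited miRDeep2 report on all libraries together gave the score and read numbers of each precursor. No sample column was left unused (0 columns).

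The table held 2241 rows, and 115 of 1915 names had several rows, of which that with the highest total was used. The 3 members and all lists were chosen with earlier results of these data known. The main test was the quasi-likelihood F test in edgeR 4.0.16 (R 4.3.3), run on all 20 libraries, with 4 group coefficients, TMM factors and the default filter by group (minimum count 10), which kept 360 miRNAs. Benjamini-Hochberg adjustment ran over these within each contrast, and a miRNA is called at adjusted p under 0.05. The common biological coefficient of variation was 47.5%. Ratios are log2 of counts plus 1, compared with two-sided exact permutation tests. Named were the 3 members, the other erythroid miRNAs by value or range, the ratio partners, the nearest 5 profiles of each member, miRNAs sharing bases 2 to 7 of a member and the marker lists. Alternatives were DESeq2 1.42.0, other scalings, no filter, other row rules, pairwise fits, a replicate block and single-library omissions. Scripts were tested on simulated data. Sequences are from RefSeq (GRCm38.p6). A RefSeq promoter sequence of Mir144 was not used here. Fragments of tRNA were not analysed here.

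The labels number the samples 1 to 5 in each group. Deviations of same-numbered samples from their group means had a mean correlation of -0.01 over 30 pairs, so the numbers were not taken to pair samples.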

Additional observations from a re-analysis of the deposited data

Results flagged for a closer look

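In 32 sets of 5 libraries (a level or ratio in a group), the gap of the highest or lowest library to its neighbour was compared with the range of the group. It exceeded the critical share of 0.71 in 2 sets, and chance alone flags about 1 in 20. Both belong to old normal replicate 2. Its miR-451a level was 13.04 on the log2 CPM scale, with a gap of 0.738 of the group's range. Its log2 ratio of miR-451a to miR-486a-5p was -5.569, with a gap of 0.786 of the range.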

How the results depend on the processing

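The members and the ratios were recomputed under up to 10 other settings and with each library left out. In old dwarf against old normal serum, the log2 fold change of miR-451a passed the threshold under DESeq2 (0.88), RLE factors (0.88), library totals (1.07), summed precursor rows (0.75), identical names counted once (0.79) and the replicate block (0.77). miR-144-3p passed under DESeq2 (0.70), RLE factors (0.70) and library totals (0.83), and miR-144-5p under these (0.76, 0.77 and 0.91) and the replicate block (0.70). In old against young normal serum, miR-144-3p passed under DESeq2 (-0.74), RLE factors (-0.75), library totals (-1.05) and summed rows (-0.70), and miR-144-5p under the same settings (-0.81, -0.81, -1.14 and -0.77). The difference of the age effects passed under DESeq2 for miR-144-3p (1.07) and miR-144-5p (1.002). The sign turned for miR-451a in young dwarf against young normal serum under library totals (0.10). In old against young dwarf serum it turned for miR-451a under upper-quartile factors (0.0071). In that comparison library totals also turned miR-144-3p (from 0.32 to -0.086) and miR-144-5p (from 0.19 to -0.22). The cause of these shifts was not tested.

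The number of miRNAs called was 63 in old dwarf against old normal serum with only the compared groups fitted. It was 6 under DESeq2 and 1 without a filter in young dwarf against young normal serum. Between old and young normal serum it was 117 under DESeq2, 106 under library totals and 34 with only the compared groups. Between old and young dwarf serum it was 0 under library totals, 0 with only the compared groups, 0 with the replicate block and 1 with summed rows. For the difference of the age effects it was 20 under DESeq2, 13 without a filter, 1 under RLE factors, and 0 under upper-quartile factors, library totals, summed rows and the replicate block. Of the 11 names of other erythroid miRNAs, those called between old dwarf and old normal serum were 2 (of 136 called in all) under DESeq2, 2 (of 118) under RLE factors, 3 (of 119) under library totals, 1 (of 95) with summed rows, 1 (of 103) with identical names counted once and 1 (of 92) with the replicate block. Between old and young normal serum they were 1 (of 117) under DESeq2, 1 (of 65) under RLE factors, 2 (of 106) under library totals and 1 (of 66) with summed rows.

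Leaving out single libraries gave ranges. miR-451a ran from 0.55 to 0.84 in old dwarf against old normal serum, passing without old dwarf replicate 2, old dwarf replicate 3, young normal replicate 1 or young normal replicate 3, and from -1.13 to -0.78 in old against young normal serum. Its range was -0.29 to 0.067 in young dwarf against young normal serum and from -0.24 to 0.017 in old against young dwarf serum. For the age comparison of normal mice, miR-144-3p ran from -0.83 to -0.50 and passed without young normal replicate 1, and miR-144-5p ran from -0.90 to -0.58 and passed without young normal replicate 1 or old normal replicate 3. The number of miRNAs called ran from 51 to 143 between old dwarf and old normal serum, with 51 to 55 without old dwarf replicate 1, 4 or 5 and 143 without old dwarf replicate 2. They ran from 29 to 123 in old against young normal serum, with 29 to 37 without old normal replicate 1, young normal replicate 3 or young normal replicate 5 and 123 without young normal replicate 1. They ran from 0 to 2 in old against young dwarf serum and from 0 to 3 for the difference of the age effects. Other erythroid miRNAs called ran from 0 to 3 between old dwarf and old normal serum and from 0 to 1 in old against young normal serum. Log2 ratios in old against young normal serum ran from -1.90 to -1.41 for miR-451a to miR-486a-5p, from -0.75 to -0.55 for miR-451a to miR-16-5p and from -1.35 to -0.85 for miR-451a to miR-23a-3p, and each passed only without young normal replicate 1. miR-451a to miR-23a-3p ran from -0.19 to 0.14 in old against young dwarf serum and from -0.25 to 0.16 in young dwarf against young normal serum, and miR-144-5p to miR-144-3p from -0.21 to -0.065 in old against young dwarf serum.

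Same-numbered samples were no more alike than others, so the replicate block is only an alternative: 13 of 30 same-numbered pairs had a correlation over 0.1, and 1 of 20 libraries lay closest to its own number. As a paired test on ratios, the smallest p that 5 pairs allow is 0.0625. Of the 5 miRNAs most like miR-451a, 3 were shared under each of Spearman correlation, deviations from group means and library totals, and of those most like miR-144-3p, 3 were shared under deviations from group means. Counts of miR-144-5p down to 46 limit the precision of the arm share.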
